A study of Drosophila melanogaster with 32 samples.

Results

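Peptidoglycan recognition and Imd pathway genes were followed in mated females of Drosophila melanogaster, the fruit fly. Of 10 genes listed, the 7 with a probe set assigned to that gene alone are described: PGRP-SB1, PGRP-SC2, PGRP-LB, PGRP-LE, imd, Rel and pirk, each measured by 1 probe set, out of 11982 genes with such a probe set. PGRP-SA, PGRP-SD and PGRP-LC had no single-gene probe set and were not analysed here. The flies came from 8 populations founded from the LHM base stock, all of them kept for 46 generations either under promiscuity, the standard protocol of that stock, in populations Prom1 to Prom4, or under monogamy, with 1 mating per generation, in populations Mono1 to Mono4. Females of each population were crossed with males of their own population and with males of the other regime, and whole females were frozen 6 h after mating. The 4 groups, named by female and then male regime, were promiscuous females with promiscuous males (P.P), promiscuous females with monogamous males (P.M), monogamous females with promiscuous males (M.P) and monogamous females with monogamous males (M.M), with 8 arrays each. The males of a cross between regimes carried the same population number as the females, so the 8 populations of females met only 4 pairs of male populations. Each of the 16 crosses had 1 array in each of 2 batches, and the batch cannot be told apart from the replicate array of a cross. Age was not given in the sources used here.

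In fruit flies, peptidoglycan recognition proteins bind the cell wall of bacteria. Some act as receptors: PGRP-LE senses peptidoglycan of the kind carried by Gram-negative bacteria, also inside cells, and passes the signal to the adaptor protein Imd, and a signalling cascade then leads to cleavage of Relish, an NF-kappaB factor encoded by Rel, which enters the nucleus and switches on genes for antimicrobial peptides. Others are amidases that cut peptidoglycan (PGRP-LB, PGRP-SC2 and PGRP-SB1), and pirk, itself switched on by the pathway, blocks signalling between the receptors and Imd. Fat body and gut are the main tissues in which the pathway is known to act.

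Values were log2 intensities, as deposited after RMA, so that a difference of 1 is a doubling. Array medians lay between 5.41 and 5.50, the correlation between any pair of arrays was between 0.992 and 0.998, and no array was a copy of another. Arrays carry no read depth, and the number of populations limits the precision. Levels of different genes cannot be set against each other on this scale, since each probe set has its own affinity. Because whole females were used, fewer cells of a type and less RNA per cell cannot be told apart. Levels and differences below are on the log2 scale, and differences are promiscuous minus monogamous unless stated.

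The 7 genes differed widely in how much they varied. Over the 32 arrays the amidase gene PGRP-SC2 had an SD of 0.90, which put it in percentile 99.7 of the SDs of all 18769 probe sets tested, and the amidase gene PGRP-SB1 had an SD of 0.70, in percentile 99.3. The negative regulator pirk had an SD of 0.36 (percentile 96.9) and the amidase gene PGRP-LB an SD of 0.25 (percentile 92.6). Those of the transcription factor gene Rel (0.20) and the adaptor gene imd (0.18) were smaller, in percentiles 86.6 and 83.5. The receptor gene PGRP-LE was among the steadiest of all probe sets, with an SD of 0.05 in percentile 0.884. The amidases and pirk were thus the variable members, and the receptor was the steady one. The plot of every array by group shows these ranges.

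**Figure D1:**
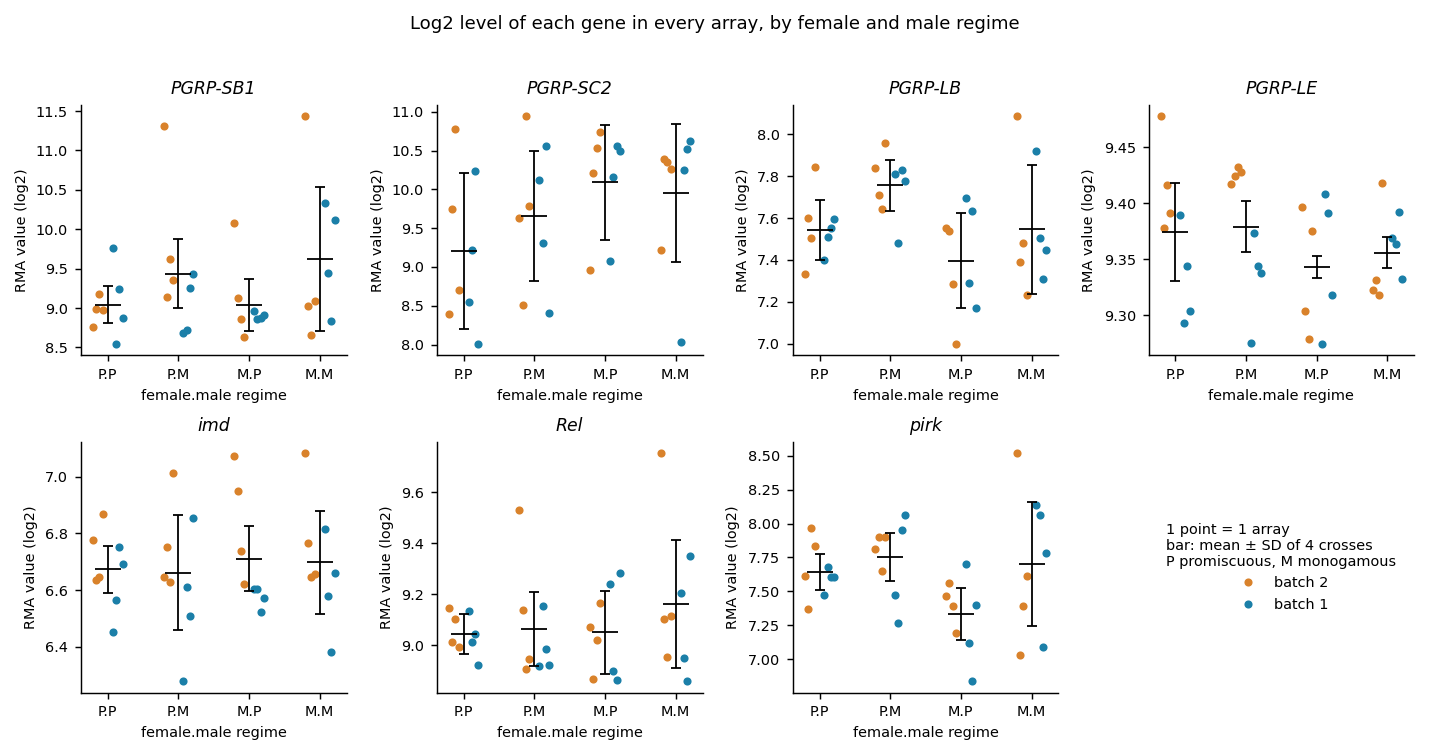
Log2 RMA value of each gene (vertical axis) in every array, in the groups P.P, P.M, M.P and M.M (horizontal axis, female regime first). Each point is an array, coloured by batch, and the bar is the mean ± SD of the 4 crosses of a group; the groups overlap for all 7 genes, and in PGRP-SB1 the P.M and M.M groups each hold 1 array above 11.

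The effect of the mate was measured as a response in each female population, averaging the 2 arrays with promiscuous males and subtracting the average of the 2 with monogamous males. With promiscuous males, females had lower values of 6 of the 7 genes on average, against 51.3% of all probe sets below 0. For 3 of them, PGRP-SB1, pirk and PGRP-LB, the unadjusted limma p was under 0.05, all lower. Of all probe sets, 11% had an unadjusted p under 0.05 in either direction and 4.76% had one with a lower value. After Benjamini-Hochberg adjustment over all probe sets none of the 7 passed 0.05, where 0% of all probe sets did. None of these responses is called a change in this fit.

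Among the amidases, PGRP-SB1, a secreted protein whose gene is induced by bacteria, had the lowest mean response. Its P.P arrays ran from 8.55 to 9.77 with a median of 8.98, and its P.M arrays from 8.68 to 11.30 with a median of 9.31. In monogamous females the M.P arrays ran from 8.63 to 10.08 (median 8.89) and the M.M arrays from 8.66 to 11.44 (median 9.27). All 4 groups overlapped, and those with monogamous males reached higher. The responses were -0.73, -0.16, -0.23 and -0.47 in Prom1 to Prom4 and -1.37, -0.24, 0.12 and -0.83 in Mono1 to Mono4, so the level was lower with promiscuous males in 7 of 8 populations. The mean response was -0.49 with an SE of 0.12, a 1.40-fold lower level with promiscuous males, and its 95% interval was -0.75 to -0.23 (limma adjusted p = 0.306). An exact two-sided sign-flip permutation test over the 8 responses, treated as independent, gave p = 0.0156. Turning the 2 responses of a population number together, since they rest on the same pair of male populations, gave an exact p of 0.125, the smallest that 4 numbers allow.

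Number 1 carried much of that value. Females mated with Mono1 males had PGRP-SB1 at 11.30 in batch 2 and 8.68 in batch 1 when the females were Prom1, and at 11.44 in batch 2 and 10.33 in batch 1 when the females were Mono1. With Prom1 males the values were 8.76 in batch 2 and 9.77 in batch 1 for Prom1 females, and 10.08 in batch 2 and 8.96 in batch 1 for Mono1 females. The Prom1 response therefore had opposite signs in the batches, -2.55 in batch 2 and 1.09 in batch 1, while the Mono1 response was -1.36 in batch 2 and -1.37 in batch 1. Mono2 also had opposite signs, 0.10 in batch 2 and -0.58 in batch 1. Without number 1 the mean response was -0.30, with 5 of the other 6 populations lower and an exact sign-flip p of 0.0625. By batch, the mean response over all 8 populations was -0.63 in batch 2 and -0.35 in batch 1.

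PGRP-LB, an amidase that degrades peptidoglycan and is known to hold Imd signalling down, had a smaller but narrower response. Its P.P arrays spanned 7.33 to 7.84 (median 7.53) and its P.M arrays 7.48 to 7.96 (median 7.79). In monogamous females the M.P arrays spanned 6.9998 to 7.69 (median 7.42) and the M.M arrays 7.23 to 8.09 (median 7.46). The ranges overlapped in both female regimes, and the medians with monogamous males were the higher ones. Responses of -0.46, -0.04, -0.21 and -0.15 in Prom1 to Prom4 and of -0.38, -0.03, 0.06 and -0.25 in Mono1 to Mono4 gave a mean of -0.18 with an SE of 0.05 (95% interval -0.30 to -0.07, limma adjusted p = 0.354). It was lower in 7 of 8 populations, with an exact sign-flip permutation p of 0.0312, and of 0.125 where same-numbered responses were turned as one. Both populations of number 1 again had the lowest responses of their regime, and leaving that number out gave a mean of -0.10 (exact sign-flip permutation p = 0.125). The mean response was -0.21 in batch 2 and -0.15 in batch 1, and in Prom2, Mono2 and Mono3 the batches had opposite signs. This probe set is of a kind whose probes can match several transcripts.

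PGRP-SC2, an amidase known from the gut, had no common direction. Its P.P arrays ran from 8.01 to 10.78 (median 8.96), its P.M arrays from 8.41 to 10.95 (median 9.71), its M.P arrays from 8.97 to 10.74 (median 10.35) and its M.M arrays from 8.03 to 10.62 (median 10.31). The groups overlapped, and the P.P median was the lowest. Responses were -1.41, 0.58, -0.24 and -0.74 in Prom1 to Prom4, and 0.40, -0.14, 0.11 and 0.17 in Mono1 to Mono4, which is 4 lower and 4 higher. Their mean of -0.16 had an SE of 0.15 and a 95% interval of -0.48 to 0.16 (limma adjusted p = 0.717, exact sign-flip permutation p = 0.547), and it came to -0.04 without number 1.

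The negative regulator pirk was the one gene of the 7 that was lower with promiscuous males in 8 of 8 populations, as were 0.773% of all probe sets. Its P.P arrays ran from 7.37 to 7.97 (median 7.61) and its P.M arrays from 7.27 to 8.06 (median 7.85). In monogamous females the M.P arrays ran from 6.84 to 7.70 (median 7.40) and the M.M arrays from 7.03 to 8.52 (median 7.70). The groups overlapped, and again the medians were higher with monogamous males. Responses were -0.10, -0.06, -0.01 and -0.26 in Prom1 to Prom4 and -0.75, -0.21, -0.13 and -0.40 in Mono1 to Mono4. The mean was -0.24 with an SE of 0.06 and a 95% interval of -0.36 to -0.12, a 1.18-fold lower level with promiscuous males (limma adjusted p = 0.304). The exact sign-flip permutation p was 0.00781, the smallest that 8 responses allow, and 0.125 where same-numbered responses were turned as one. Without number 1 the mean was -0.18, and the exact sign-flip p over the 6 remaining responses was 0.0312. The batches gave -0.18 in batch 2, with 6 of 8 populations lower, and -0.30 in batch 1, with 7 of 8 lower. In Prom2, Prom3 and Mono2 the response had opposite signs in the batches.

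The receptor, the adaptor and the transcription factor had mean responses near 0. For PGRP-LE the arrays of all 4 groups lay between 9.27 and 9.48, and the mean response was -0.01 with an SE of 0.02 (limma adjusted p = 0.909). The adaptor gene imd lay between 6.28 and 7.08 and responded by 0.01 with an SE of 0.04 (limma adjusted p = 0.935). Rel ran from 8.92 to 9.14 in P.P, 8.91 to 9.53 in P.M, 8.86 to 9.28 in M.P and 8.86 to 9.75 in M.M arrays. Its mean response was -0.06 with an SE of 0.04 and a 95% interval of -0.15 to 0.02 (limma adjusted p = 0.577), lower in 5 of 8 populations, and the means of the batches were -0.13 in batch 2 and 0.01 in batch 1. The intervals bound the mean response of PGRP-LE to between -0.06 and 0.04 and that of imd to between -0.08 and 0.11.

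**Figure D2:**
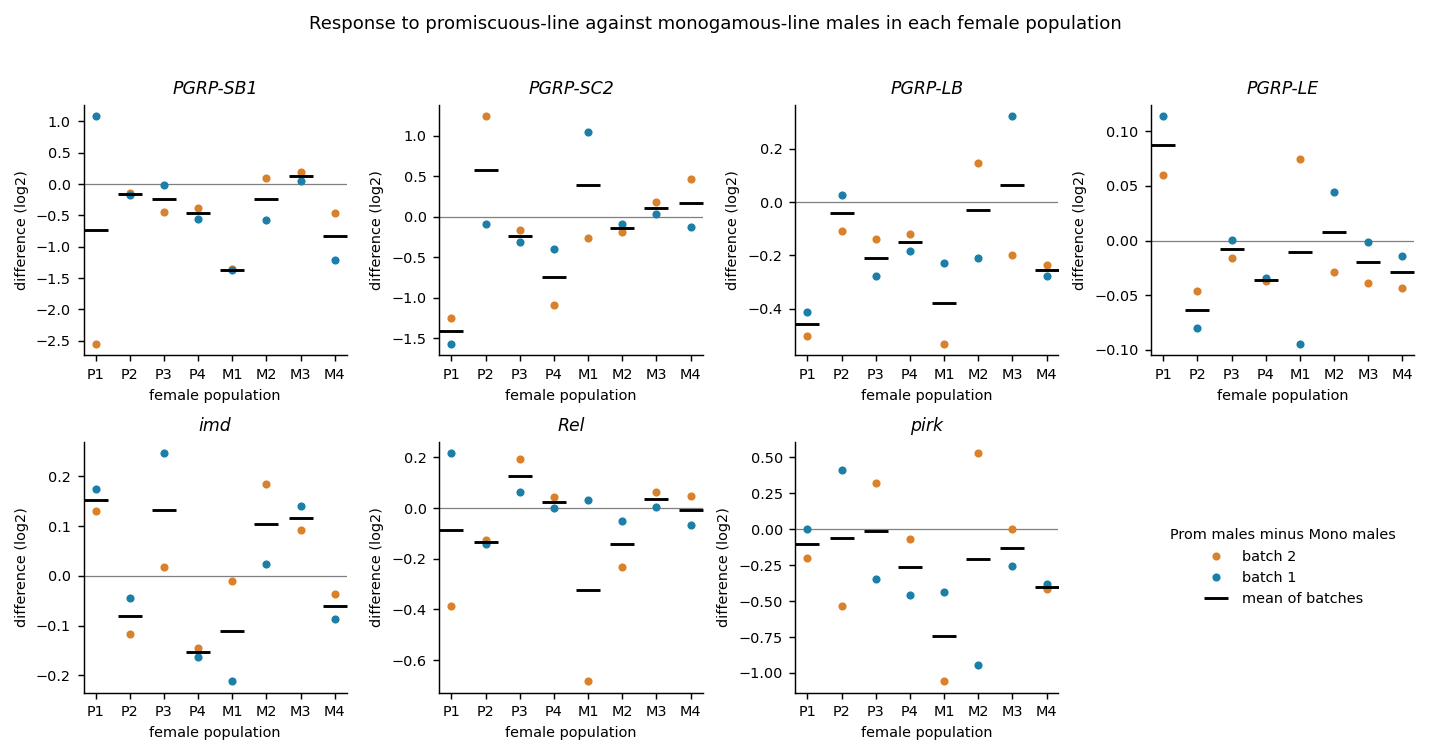
Response of each gene, the log2 level with promiscuous males minus that with monogamous males (vertical axis), in each female population (horizontal axis, P for Prom and M for Mono). Points are batches and the black bar is their mean; for pirk all 8 bars are below 0, for PGRP-SB1 and PGRP-LB 7 are, and the Prom1 points of PGRP-SB1 lie on either side of 0.

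The responses were then set apart by the regime of the female. In promiscuous females 3 of the 7 genes, PGRP-SB1, PGRP-SC2 and PGRP-LB, had an unadjusted limma p under 0.05, all lower with promiscuous males, against 10.2% of all probe sets, and none passed after adjustment, where 0.00533% did. In monogamous females 2 did, PGRP-SB1 and pirk, again lower, against 8.46% of all probe sets, and none passed after adjustment, where 0% did. For PGRP-SB1 the mean was -0.40 in promiscuous females and -0.58 in monogamous females, and for PGRP-LB it was -0.21 in promiscuous females and -0.15 in monogamous females. For pirk it was -0.11 in promiscuous and -0.37 in monogamous females, and its adjusted p in monogamous females was the lowest of the 7 (limma adjusted p = 0.255). For PGRP-SC2 it was -0.45 in promiscuous and 0.14 in monogamous females. Single populations moved several of these values. The PGRP-SC2 mean in promiscuous females was -0.14 without Prom1 and -0.80 without Prom2, and its unadjusted p was under 0.05 in 2 of 15 alternatives. In monogamous females, leaving out Mono1 gave -0.32 for PGRP-SB1, -0.25 for pirk and -0.07 for PGRP-LB. The PGRP-LB mean in promiscuous females was -0.13 without Prom1, and that of pirk was -0.06 without Prom4. In promiscuous females PGRP-SB1 was at -0.88 in batch 2 and 0.08 in batch 1.

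The difference between the female regimes in their response was tested directly. One of the 7 genes, pirk, had an unadjusted limma p under 0.05 for that difference, against 7.89% of all probe sets, and none passed after adjustment, where 0.00533% did. The difference for pirk was 0.26 with an SE of 0.11 (limma adjusted p = 0.612, exact permutation p = 0.114 for 4 against 4 responses). The difference for PGRP-SC2 was -0.59 with an SE of 0.30 (limma adjusted p = 0.656, exact permutation p = 0.257), and that for PGRP-SB1 was 0.18 with an SE of 0.24 (limma adjusted p = 0.883, exact permutation p = 0.571). Without Prom1 the PGRP-SC2 difference was -0.27, and without Prom2 it was -0.93. The pirk difference was 0.14 without Mono1, and that of PGRP-SB1 ranged from -0.50 to 0.86 over 15 alternatives. The 4 responses of promiscuous females overlapped the 4 of monogamous females for all 7 genes.

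**Figure D3:**
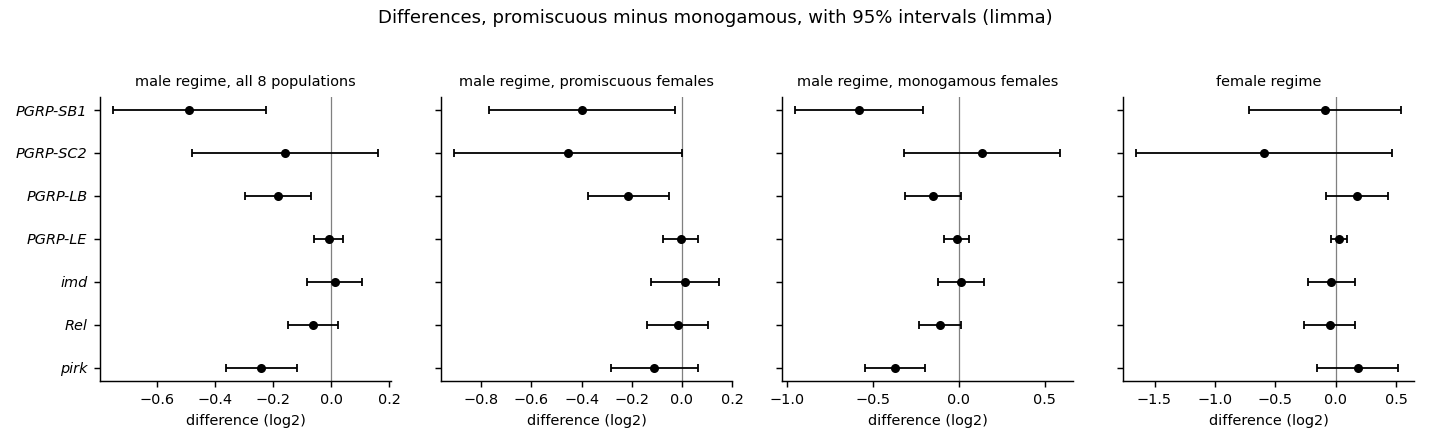
Estimated log2 difference for each gene (points) with its 95% interval from limma (lines), promiscuous minus monogamous. The first panel is the mean response to male regime over 8 populations, the next panels are the response in promiscuous and in monogamous females, and the last is the female regime; each panel has its own horizontal scale, and the intervals of PGRP-SB1, PGRP-LB and pirk in the first panel lie below 0 before adjustment over all probe sets.

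The regime of the females themselves, whatever their mate, was compared between the means of 4 promiscuous and 4 monogamous populations, each over 4 arrays. None of the 7 genes had an unadjusted limma p under 0.05, against 7.11% of all probe sets, and none passed after adjustment, where 0% did. Among the amidases, PGRP-SC2 averaged 9.43 ± 0.83 in promiscuous and 10.02 ± 0.81 in monogamous populations (SD, n = 4 each), a difference of -0.59 with an SE of 0.47 (limma adjusted p = 0.860, exact permutation p = 0.457). PGRP-SB1 averaged 9.24 ± 0.33 in promiscuous and 9.33 ± 0.60 in monogamous populations (SD, n = 4 each), with a difference of -0.09 (limma adjusted p = 0.977, exact permutation p = 0.857). PGRP-LB averaged 7.65 ± 0.10 in promiscuous and 7.47 ± 0.25 in monogamous populations (SD, n = 4 each), with a difference of 0.18 (limma adjusted p = 0.801, exact permutation p = 0.314). The regulator pirk averaged 7.70 ± 0.15 in promiscuous and 7.52 ± 0.32 in monogamous populations (SD, n = 4 each), also a difference of 0.18 (limma adjusted p = 0.862, exact permutation p = 0.371). For PGRP-SC2 and PGRP-SB1 the SD of either regime was larger than the difference between the regimes, and the groups overlapped for all 4 of these genes. Over 16 alternatives, which include leaving out each population, the difference ranged from -0.99 to -0.36 for PGRP-SC2, from -0.26 to 0.20 for PGRP-SB1, from 0.09 to 0.29 for PGRP-LB and from 0.07 to 0.33 for pirk, with no adjusted p under 0.05. Mono1 gave 1 end of the range in each: without it the difference was -0.99 for PGRP-SC2, 0.20 for PGRP-SB1, 0.29 for PGRP-LB and 0.33 for pirk.

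PGRP-LE was the one gene of the 7 whose promiscuous and monogamous populations did not overlap, as was the case for 4.08% of all probe sets. The promiscuous means were 9.39, 9.37, 9.38 and 9.37 and the monogamous means 9.34, 9.35, 9.35 and 9.36. The difference of 0.03 had an SE of 0.03 in the limma fit (adjusted p = 0.905), and the exact permutation p was 0.0286, the smallest that 4 against 4 populations allow. Within batches it was 0.08 in batch 2 and -0.02 in batch 1, so the direction held in batch 2 only. The adaptor gene imd (6.67 in promiscuous and 6.70 in monogamous populations) and Rel (9.05 in promiscuous and 9.11 in monogamous populations) differed by -0.04 and -0.05.

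Populations of the same regime differed in most of the genes. In a limma F-test over the 4 promiscuous and the 4 monogamous populations, with male regime and batch as terms, 6 of the 7 genes passed 0.05 after adjustment, against 17.7% of all probe sets. Only PGRP-LE did not (limma adjusted p = 0.996). Since a population number also fixed the males, these differences hold those of the mates, and the test takes the spread between arrays of a population as its error.

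PGRP-SC2 stood out among the 6, with F = 13.8 and a limma adjusted p of 1.00e-05. Its population means were 9.17, 9.20, 10.63 and 8.73 in Prom1 to Prom4 and 8.82, 10.25, 10.49 and 10.53 in Mono1 to Mono4. Prom3, Mono2, Mono3 and Mono4 were thus the high populations, with every one of their arrays above 10. Prom1, Prom2, Prom4 and Mono1 were the low ones by their means, but 1 array of Prom1 females with Mono1 males stood at 10.12. Populations within regimes accounted for 64.7% of its variance over the arrays, against a median of 23.5% over all probe sets, and the female regime for 11.2%. It passed the F-test in each of the 9 alternative settings that were run, with adjusted p-values up to 0.0365.

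For PGRP-LB the population means were 7.60, 7.58, 7.63 and 7.79 in Prom1 to Prom4 and 7.81, 7.43, 7.43 and 7.21 in Mono1 to Mono4 (limma adjusted p = 0.00139). Mono1 was the highest of all and Mono4 the lowest. For pirk they were 7.59, 7.55, 7.79 and 7.85 in Prom1 to Prom4 and 7.95, 7.44, 7.18 and 7.50 in Mono1 to Mono4 (limma adjusted p = 0.0401), with Mono1 highest and Mono3 lowest. For PGRP-SB1 they were 9.63, 8.85, 9.32 and 9.16 in Prom1 to Prom4 and 10.20, 9.12, 8.81 and 9.19 in Mono1 to Mono4 (limma adjusted p = 0.0489), and Mono1 and Prom1 were the highest. These 3 calls were lost without number 1, where the adjusted p was 0.142 for PGRP-LB, 0.413 for pirk and 0.177 for PGRP-SB1. They were lost in batch 1 alone as well, with adjusted p-values of 0.283 for PGRP-LB, 0.106 for pirk and 0.584 for PGRP-SB1. Those of PGRP-SB1 and pirk were lost in batch 2 alone (0.0956 and 0.525), without number 3 (0.126 and 0.163) and without the intensity trend (0.0697 and 0.0555). Leaving out number 2 took the adjusted p of PGRP-SB1 to 0.0988, and leaving out number 4 took that of PGRP-LB to 0.0560 and that of pirk to 0.0633.

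The adaptor gene imd had means of 6.54, 6.64, 6.63 and 6.86 in Prom1 to Prom4 and 6.89, 6.72, 6.57 and 6.63 in Mono1 to Mono4 (limma adjusted p = 0.00546). Mono1 and Prom4 were the highest, and the adjusted p was 0.0880 without number 1, 0.0687 without number 4 and 0.332 in batch 1 alone. Rel had means of 9.18, 9.08, 9.01 and 8.94 in Prom1 to Prom4 and 9.32, 8.96, 8.92 and 9.23 in Mono1 to Mono4 (limma adjusted p = 0.0140). Mono1 was the highest here as well. Without number 3 the adjusted p of Rel was 0.0635, and in batch 2 alone it was 0.290.

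**Figure D4:**
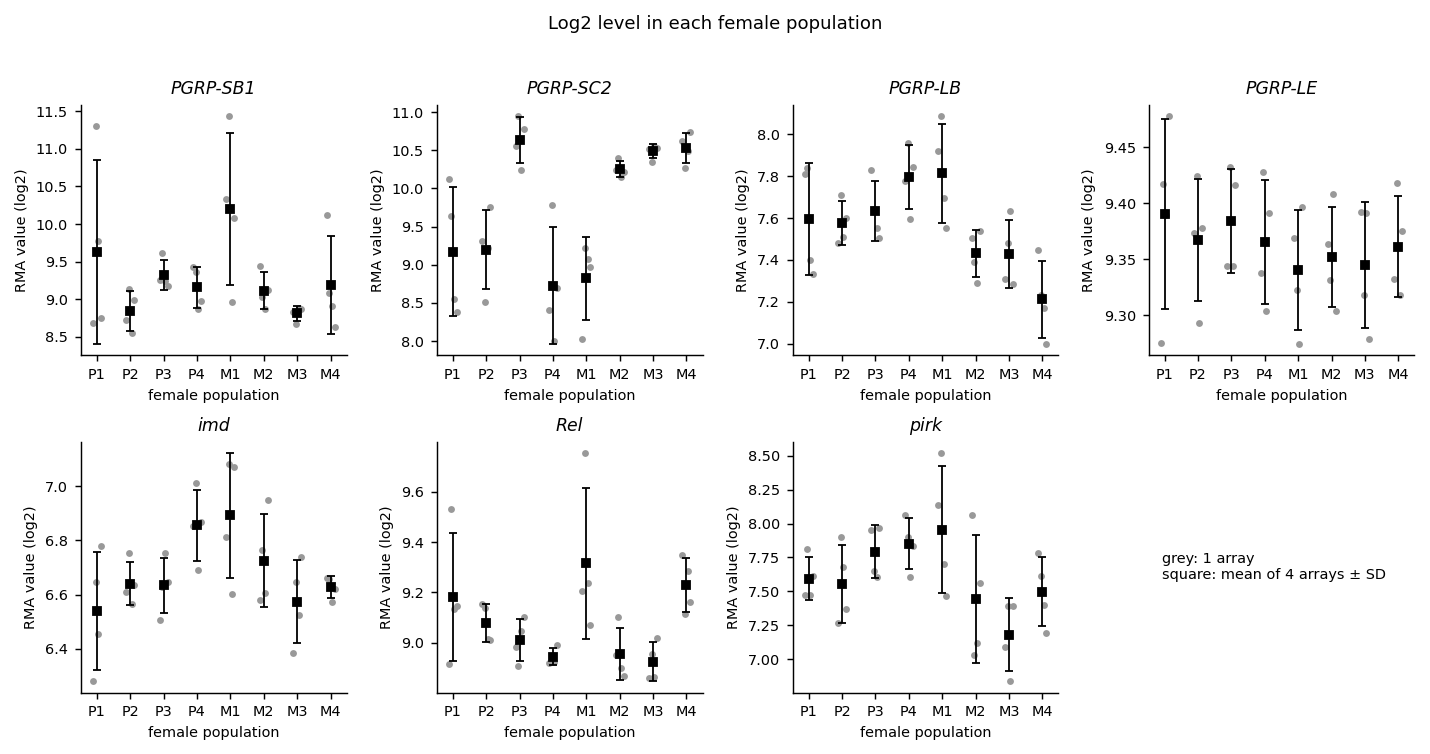
Log2 level of each gene (vertical axis) in each female population (horizontal axis, P for Prom and M for Mono). Grey points are arrays and squares are means ± SD of 4 arrays; PGRP-SC2 falls into 4 populations with means from 10.25 to 10.63 and 4 from 8.73 to 9.20, and Mono1 has the highest mean for PGRP-SB1, PGRP-LB, imd, Rel and pirk.

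The variance of the genes over the 32 arrays divided differently. Male regime held 14.1% of it for PGRP-LB, 12.4% for PGRP-SB1 and 11.4% for pirk, against a median of 1.63% over all probe sets. The other 4 genes held from 0.116% for imd to 2.68% for Rel. Populations within regimes held 48.7% for Rel, 46.1% for PGRP-LB, 43.9% for imd, 37.2% for pirk and 36.9% for PGRP-SB1, but 3.26% for PGRP-LE. The arrays of 1 cross, after the batch mean was taken off, held 59.9% for PGRP-LE, against a median of 37.8%.

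Between batches, imd was the gene that differed. It averaged 6.78 in batch 2 and 6.59 in batch 1 and was higher in batch 2 in 14 of 16 crosses, a difference of 0.19 with an SE of 0.04 (limma adjusted p = 0.00179). It was the only call among the 7 genes, against 20.2% of all probe sets, and batch held 28.0% of its variance. For PGRP-SB1 the batch difference was 0.21 with an SE of 0.19 (limma adjusted p = 0.465), with single crosses between -1.03 and 2.62. The other 5 genes had batch differences between 0.00485 for PGRP-LB and 0.19 for PGRP-SC2, none of them called.

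The genes also differed in which of them varied together. Correlations over the 32 arrays, with the batch mean subtracted, are given as descriptions, since arrays share populations, mates and crosses. PGRP-LB and pirk had r = 0.65 (Spearman rho 0.64), PGRP-SB1 and pirk r = 0.58 (rho 0.61) and PGRP-SB1 and PGRP-LB r = 0.53 (rho 0.47). The adaptor gene imd, with a mean response near 0, had r = 0.41 with PGRP-SB1, 0.40 with PGRP-LB and 0.46 with pirk. Rel had r = 0.43 with pirk but a rho of 0.26. PGRP-SB1 and Rel had r = 0.69 but a rho of 0.30, with a few arrays high in both. PGRP-SC2 ran the other way, with r = -0.39 with PGRP-LB, -0.38 with pirk and -0.47 with imd. PGRP-LE had no r beyond 0.12 in size with any of the others.

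Among 13640 single-gene probe sets of other genes, those most like PGRP-SB1 over the 32 arrays were DptB (r = 0.92) and Mtk (r = 0.88), which encode the antimicrobial peptides Diptericin B and Metchnikowin, and edin (r = 0.82), an infection-induced gene. Those most like Rel were edin (r = 0.77), CecB (r = 0.76), which encodes a cecropin, and Sp212 (r = 0.75). The highest Rel arrays were of number 1 with Mono1 males in batch 2, at 9.75 in Mono1 and 9.53 in Prom1 females. Rank correlations were not computed for these companions. The genes most like PGRP-SC2 were Sod3 (r = 0.93), an extracellular superoxide dismutase, M7BP (r = 0.93) and Rdh1 (r = 0.90). Other probe sets of Sod3 and M7BP were less like it, down to r = 0.67 for Sod3 and 0.24 for M7BP. PGRP-SC2 and these 3 genes all lie on chromosome arm 2R in the RefSeq table, with 470 genes between it and Sod3, 209 to M7BP and 199 to Rdh1.

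The remaining genes had less close companions. For PGRP-LB they were Mdr49, an ABC transporter gene (r = 0.83), CG16743 (r = 0.79) and CG13321 (r = 0.76). For pirk they were Acbp6, which encodes an acyl-CoA binding protein (r = 0.71), CG15043 (r = 0.71) and CG5550 (r = 0.70). For imd they were Pepck2 (r = 0.68), Hil (r = 0.68) and rswl (r = 0.67), and imd, Pepck2 and rswl are near neighbours on arm 2R, with 13 genes between imd and Pepck2 and 8 between imd and rswl. For PGRP-LE they were CG16865 (r = 0.70), Alr (r = 0.70) and PIG-K (r = 0.69).

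**Figure D5:**
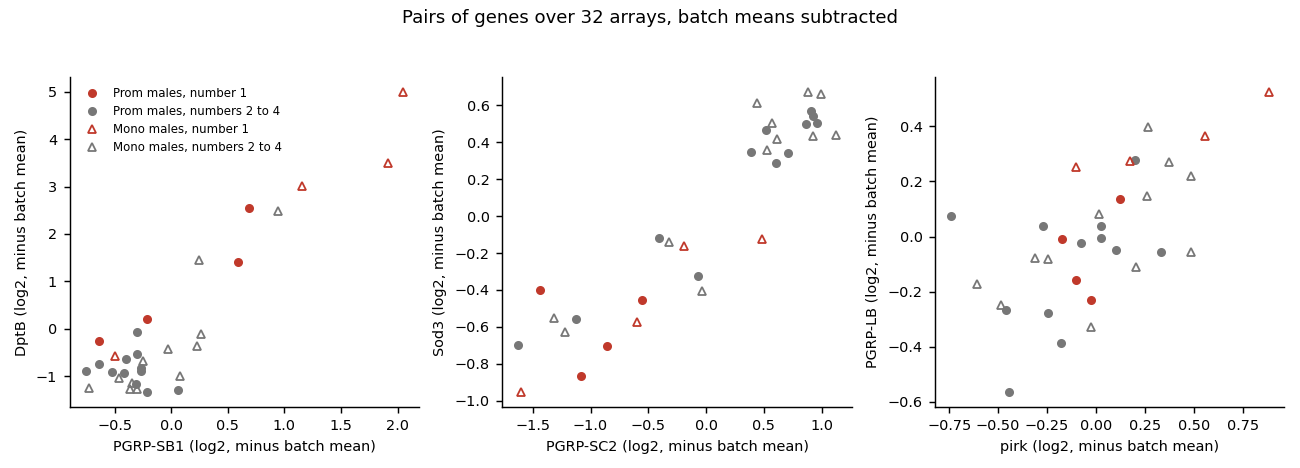
Log2 values of pairs of genes in 32 arrays with the mean of each batch subtracted: PGRP-SB1 and DptB, PGRP-SC2 and Sod3, pirk and PGRP-LB. Red marks crosses of population number 1, filled circles promiscuous males and open triangles monogamous males; the 3 arrays highest in both PGRP-SB1 and DptB are number 1 with monogamous males.

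The antimicrobial peptide genes on which the pathway acts, together with the infection-induced gene edin, were taken as a list of 13. Of these, 5 had a single-gene probe set (AttD, CecB, DptB, edin and Mtk). With promiscuous males 5 of 5 were below 0, against 51.3% of all probe sets, with a median response of -0.37 against -0.0016 over all probe sets. Of the 5, 3 had an unadjusted limma p under 0.05, against 4.76% of all probe sets with a lower value, and AttD was at -0.0083 with an SE of 0.05. Those with the smallest p were edin at -0.37 with an SE of 0.11 (limma adjusted p = 0.354), DptB at -0.79 with an SE of 0.27 (limma adjusted p = 0.370) and CecB at -0.28 with an SE of 0.12 (limma adjusted p = 0.416). None passed after adjustment. The mean levels of edin and AttD, 4.31 and 4.24, lay below every array median, of which the lowest was 5.41. DptB, Mtk and edin were also the genes most like PGRP-SB1 over the arrays, so their responses are not independent of its response. The mean of the list responded by -0.67, 0.19, -0.27 and -0.56 in Prom1 to Prom4 and by -1.52, -0.27, 0.32 and -0.54 in Mono1 to Mono4, so Mono1 was lowest here as it was for PGRP-SB1. Without number 1 edin was at -0.17, DptB at -0.47 and CecB at -0.05. Mtk was at -0.63 with an SE of 0.33 (limma adjusted p = 0.507), and at -0.26 without number 1. Between populations 3 of the 5 passed the F-test after adjustment, against 17.7% of all probe sets. For the female regime 4 of the 5 were lower in promiscuous females, against 8842 of all 18769 probe sets, with a median of -0.15. Of the 5, 0 had an unadjusted limma p under 0.05 there, against 7.11% of all probe sets.

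Other genes of the family and pathway were taken as a list of 26, of which 21 were measured by 29 probe sets. Their responses to male regime were small, 18 above 0 and 11 below with a median of 0.01. Of the 29, 3 higher and 1 lower had an unadjusted limma p under 0.05, against 11% of all probe sets, and none passed after adjustment. The 1 lower was a probe set of sick at -0.09, and other probe sets of sick lay between -0.08 and 0.05. Several of the 29 were of sick, with mean levels from 3.70 to 5.43, near or below the array medians. The smallest p-values belonged to trbd, a deubiquitinating enzyme that restrains the pathway, at 0.11 with an SE of 0.04 (limma adjusted p = 0.393), to cad, a homeodomain factor that restrains peptide genes in the gut, at 0.06 (limma adjusted p = 0.410), and to dnr1, an inhibitor of the caspase Dredd, at 0.08 (limma adjusted p = 0.446). For the female regime 8 were higher and 21 lower in promiscuous females, with a median of -0.02, where 8842 of all 18769 probe sets were lower. Of the 29, 2 had an unadjusted p under 0.05, against 7.11% of all probe sets. The smallest p-values were those of trbd at -0.21, ben, a ubiquitin-conjugating enzyme, at -0.13 and cad at -0.10, with none passing after adjustment. Of the 29 probe sets 9 passed the F-test between populations, against 17.7% of all probe sets.

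Markers of several tissues and of haemocytes, with male tissues among them, were read in the same arrays. The 6 measured gut genes of 7 listed, which encode digestive proteases and a mucin, were all lower with promiscuous males, and 6 of 6 had an unadjusted limma p under 0.05, against 4.76% of all probe sets with a lower value. Their mean response was -0.08, between -0.15 and -0.01 and lower in 8 of 8 populations, and their mean level lay between 12.42 and 12.51 in promiscuous and between 12.28 and 12.46 in monogamous populations. Fat body genes, 7 of 7 measured, had 3 probe sets higher and 4 lower with a mean response of -0.02, 1 of the lower (Lsd-1 at -0.11) with an unadjusted p under 0.05, and the mean level lay between 12.17 and 12.29 in promiscuous and between 12.05 and 12.26 in monogamous populations. Haemocyte genes, 6 of 6 measured by 7 probe sets, also had 3 higher and 4 lower with a mean response of -0.02, 1 of the lower (Hml at -0.12) with an unadjusted p under 0.05, and the mean level lay between 6.82 and 6.93 in promiscuous and between 6.85 and 6.94 in monogamous populations. Ovary genes, 5 of 7 measured by 8 probe sets, had 7 higher and 1 lower, with a mean response of 0.03. Of all 18769 probe sets, 9146 were above 0. Of the ovary probe sets, 3 of the higher had an unadjusted p under 0.05, against 1164 of all probe sets with a higher value. These 3 belonged to bcd and osk, of which other probe sets were at 0.02. Male accessory gland genes, 6 of 6 measured, averaged from 3.44 to 3.49 in promiscuous and from 3.43 to 3.49 in monogamous populations, with 6 of 6 lower and 1 of these (Acp76A at -0.08) with an unadjusted p under 0.05, and testis genes, 6 of 6 measured by 8 probe sets with 6 of these lower and 0 with an unadjusted p under 0.05, averaged from 3.92 to 3.98 in promiscuous and from 3.91 to 3.96 in monogamous populations. The accessory gland mean lay below the lower quartile of every array, which was between 3.76 and 3.93. The part of gut RNA in the responses of PGRP-SB1, PGRP-LB and pirk was not tested.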

How the data were processed

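Total RNA of whole mated females was hybridised to 32 single-colour Affymetrix arrays. Per the submitters' processing notes, the authors made the deposited log2 values by RMA in affy, with no version named. RMA forces a shared intensity distribution on the arrays, so a shift of most genes by a like amount would not be seen. No further normalization was applied. Of 18952 probe sets, 183 controls were left out and 18769 tested. Gene names came from the old platform annotation, in which 13647 tested probe sets had 1 gene, 402 several and 4720 none. All 7 member probe sets matched the RefSeq table of Release 6 plus ISO1 MT, used for names, arms and gene order only.

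Each response was the mean with promiscuous males minus that with monogamous males, in which batch cancels. The 8 responses, with female regime as a term, the 8 population means, the 32 arrays (populations) and the 16 batch differences were fitted with limma 3.58.1 in R 4.3.3, with an intensity trend, two-sided, Benjamini-Hochberg adjustment over all tested probe sets and a threshold of 0.05. The population was the unit of replication for the regimes. Exact sign-flip and permutation tests were two-sided. The scripts were tested on simulated data. The members and lists were chosen with earlier results of these data known, and every member with a single-gene probe set was named. From each list the 3 probe sets with the smallest p are given, and for each member the 3 probe sets with the highest Pearson r. Alternatives were repeated quantile normalization, median centring, leaving out the dimmest 40% of probe sets, no trend, each batch alone, each population or number left out, arrays as samples with population as a random block, and population number as a block. For the male regime, responses averaged by population number were fitted as well. Same-numbered populations met the same pair of male populations, but were not taken as pairs in the main limma fits. Their deviations from the regime mean correlated at 0.13, 0.07, 0.19 and 0.02. Sequences of the members were not used here.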

Additional observations from a re-analysis of the deposited data

Results flagged for a closer look

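In 63 groups of values of the 7 genes examined for a value far from the others, 5 held one, and chance flags about 1 in 20 groups. PGRP-SB1 stood at 11.3048 in the batch 2 array of Prom1 females with Mono1 males, against 9.62 for the next array of the P.M group. In the same array Rel stood at 9.5308, against 9.15 for the next. PGRP-SB1 also stood at 10.0760 in the batch 2 array of Mono1 females with Prom1 males, against 9.12 for the next array of the M.P group. The PGRP-SC2 mean of Mono1 was 8.8236, against 10.25 for the next lowest monogamous population. The PGRP-LE response of Prom1 was 0.0872, against 0.0080 for the next highest of the 8 populations. All 5 belong to crosses of population number 1, and the cause was not tested.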

How the results depend on the processing

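For the male regime, PGRP-SB1, PGRP-LB and pirk stayed lower with promiscuous males in each of 21 alternatives, from -0.63 to -0.30 for PGRP-SB1, from -0.23 to -0.10 for PGRP-LB and from -0.30 to -0.18 for pirk. Over the 7 genes, 8 of 147 such values changed sign, and none of the genes that changed had passed the test. With population number as a replicate block, 13 probe sets passed, against 0 without it. PGRP-SB1 passed among them (-0.49 with an SE of 0.06, limma adjusted p = 0.0210). Same-numbered populations met the same pair of male populations, but the labels state no other pairing. The block takes the spread between numbers out of the error, so that SE does not measure variation between pairs of male populations. With same-numbered responses turned as one, the exact sign-flip p of PGRP-SB1 was 0.125. PGRP-LB and pirk had blocked adjusted p-values of 0.165 and 0.137, and the block gave 0 calls for the female regime. By population means, numbers 1, 2 and 3 correlated best with their own number and number 4 did not. By responses, only number 1 did. The deviations of same-numbered responses correlated at 0.17, 0.03, -0.04 and 0.01. Leaving out 1 population or number gave 0 to 2 calls for the male regime over all populations, 0 to 10 in monogamous females (10 without Prom2), 0 to 2 in promiscuous females, 0 to 4 for the difference between female regimes and 0 to 1 for the female regime. In promiscuous females the 1 probe set called was lost, leaving 0, under quantile normalization, median centring, the filter on dim probe sets, no trend, either batch alone and arrays as samples. For the difference between female regimes, 1 call became 2 with median centring or batch 1 alone and 0 with no trend, batch 2 alone or arrays as samples. The female regime had 1 call in batch 1 alone and 142 with arrays as samples, none of them a member. Between populations 3315 probe sets passed, against 1060 in batch 1 alone and 1412 in batch 2 alone. Leaving out each population number there was chosen after seeing the data. PGRP-SB1 was lost in 6 of 9 alternatives for populations and PGRP-SC2 in none. With 8 populations and 4 pairs of male populations, small differences are not resolved, and the causes were not tested.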
